A study of Mus musculus with 20 samples.

Results

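The 7 genes described here encode Eph receptors and ephrins, the cell-surface proteins that place cells along the axis of intestinal crypts: the B-type receptors Ephb2, Ephb3 and Ephb4, the A-type receptor Epha2, the B-type ligands Efnb1 and Efnb2, and the A-type ligand Efna1. They were chosen by name, and all 7 were found among the 17294 gene names of the acute table and the 16195 of the prolonged table. RNA was sequenced from jejunal epithelium of female mice in 20 libraries. At the acute time, 7 days after ablation, there were 5 controls and 7 libraries with both H3K27 demethylase genes, Kdm6a and Kdm6b, knocked out (double knockout, DKO). At the prolonged time, 5 months after ablation, there were 3 controls and 5 DKO libraries. The labels give the controls as control or wild type and call the libraries biological replicates, and the acute libraries each carry an animal number. The driver and agent of the ablation, the strain, the age of the animals and any pooling are not given in the sources used here, and no treatment shared by all groups is named. The series design describes the cells as crypt epithelium.

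Eph receptors are tyrosine kinases that bind ephrins on a neighbouring cell, so that both cells receive a signal on contact. In the intestine, Wnt signalling at the crypt base maintains EphB2 and EphB3, while ephrin-B ligands increase towards the villus. The opposed gradients sort cells: EphB2 marks stem and progenitor cells in a decreasing gradient up the crypt, and EphB3 marks the crypt base, where it holds Paneth cells in place. EphA2 and ephrin-A1 form a second, A-type pair of epithelia.

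In these libraries Ephb3 was the gene of the 7 called lower at both times, by 50.8% and 36.0% of the control mean. Efnb1 was called lower at the prolonged time, by 14.9%. The DKO means of Ephb2, Efnb1, Efnb2 and Efna1 were also below the control means at both times. Ephb2, Ephb4, Epha2, Efnb2 and Efna1 passed the test at neither time. The test was limma on log2(CPM + 1), where CPM scale the reads of each gene to an equal total of reads in genes per library, with Benjamini-Hochberg adjustment over all genes and a call at an adjusted p under 0.05. At the acute time 1 of 7 genes was called lower and 0 higher, beside 12.1% and 2.9% of the 13601 genes tested. At the prolonged time 2 of 7 were called lower and 0 higher, beside 8.94% and 5.74% of 13316 genes. The median log2 fold change (DKO minus control) of the 7 was -0.18 at each time, beside -0.07 for all genes at the acute time and 0.00 at the prolonged time. At an unadjusted p under 0.05 there were 4 of the 7 at each time, beside 28.9% of all genes at the acute and 28.2% at the later time.

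The sequence upstream of 3 of the genes is shown because the results turn on them: Ephb3 and Efnb1 were called, and Ephb2 is the receptor to which both were compared. The bases are those just before the gene start in RefSeq, build GRCm38.p6, written 5′ to 3′ on the gene's strand, with every CG dinucleotide in capitals. Ephb2 lies at chr4:136836013-136836262 on the minus strand, Ephb3 at chr16:21204545-21204754 on the plus strand and Efnb1 at chrX:99135811-99136060 on the plus strand. The Ephb3 sequence ends where an exon in GENCODE begins.
Ephb2: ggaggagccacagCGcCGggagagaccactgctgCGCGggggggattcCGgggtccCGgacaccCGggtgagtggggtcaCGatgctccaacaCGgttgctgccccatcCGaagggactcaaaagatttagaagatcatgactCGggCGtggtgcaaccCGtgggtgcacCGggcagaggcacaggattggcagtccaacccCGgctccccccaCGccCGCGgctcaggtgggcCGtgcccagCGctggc
Ephb3: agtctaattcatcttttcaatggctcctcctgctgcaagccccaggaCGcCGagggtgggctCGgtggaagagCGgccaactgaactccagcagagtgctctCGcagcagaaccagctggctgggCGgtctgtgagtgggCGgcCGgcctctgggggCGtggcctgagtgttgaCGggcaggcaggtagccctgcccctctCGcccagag
Efnb1: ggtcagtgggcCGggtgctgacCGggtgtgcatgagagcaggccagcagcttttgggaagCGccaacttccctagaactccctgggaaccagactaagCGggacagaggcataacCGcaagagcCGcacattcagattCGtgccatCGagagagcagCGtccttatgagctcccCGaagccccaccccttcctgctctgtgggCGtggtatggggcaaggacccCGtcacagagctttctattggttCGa
All 7 genes had such a window of 250 bases, and Efna1 had 2. The TCF/LEF core, the letters CTTTGA or CTTTGT on either strand, was searched because Ephb2 and Ephb3 are textbook Wnt targets. It was in 27.6% of all 32851 windows of that length and in 1 of the 8 windows of these genes, that of Epha2, where CTTTGA starts 209 bases before the gene start. The Ephb2, Ephb3 and Efnb1 windows do not hold these letters. All 8 windows held more CG dinucleotides than the median of 6 over all windows, with 20 for Ephb2, 16 for Ephb3 (11 of them in the bases printed), 13 for Efnb1, 12 for Ephb4, 9 for Epha2 and 27 for Efnb2.

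The libraries were first checked as a whole. Reads in genes ranged from 15435118 to 26549494 in controls of the acute time and from 19134272 to 26586045 in its DKO libraries. They ranged from 9914738 to 23181576 in prolonged controls and 12560843 to 20612206 in prolonged DKO libraries. Kdm6a was at 66.1 ± 6.62 CPM (SD, n = 5) in controls and 42.6 ± 2.73 (n = 7) in DKO libraries of the acute time, and at 76.2 ± 5.95 (n = 3) and 49.1 ± 3.93 (n = 5) at the prolonged time. Kdm6b was at 101 ± 6.71 and 70.4 ± 8.87 CPM at the acute time and at 102 ± 3.85 and 76.3 ± 4.98 at the prolonged time. Every DKO library was below every control for both genes. All 7 epithelial markers (Epcam, Cdh1, keratins and others) were detected in every group, with sums of 9383 to 11709 CPM. Acute DKO libraries 3 and 4 carry animal numbers apart from those of the other acute libraries and had the lowest sums of stem and Paneth cell markers. Acute estimates of the 7 genes are therefore also given without them.

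Ephb3, the receptor of the crypt base, had DKO libraries that all lay below all controls of the same time. Its levels in acute controls 1 to 5 were 22.03, 30.66, 29.35, 26.80 and 20.44 CPM. In the acute DKO libraries they ran from 6.95 in DKO 4 through a median of 13.5 to 17.4 in DKO 2 and 6. The groups do not overlap, which held for 7.79% of all genes at the acute time, 6.55% with every DKO library lower and 1.24% with every one higher. Of the 7 genes only Ephb3 did so. The mean fell by 50.8%, from 25.9 ± 4.48 (SD, n = 5) to 12.7 ± 3.98 CPM (n = 7). This is a log2 fold change of -1.01 ± 0.20 (SE) with an adjusted p of 0.00445, lower than that of all but 1.1% of genes tested. Without acute DKO 3 and 4 it was -0.81, with an adjusted p of 0.0047. In bulk RNA, fewer cells of a type and less RNA per cell cannot be told apart.

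The prolonged controls 1 to 3 had 30.1, 24.5 and 26.5 CPM of Ephb3, and the prolonged DKO libraries 1 to 5 had 16.0, 17.0, 19.4, 15.7 and 18.5 CPM. Again no DKO library reached a control. At this time 20.5% of all genes had groups that do not overlap, 11.7% with DKO lower and 8.82% with DKO higher, and 2 of the 7 genes did, Ephb3 and Efnb1. The mean fell by 36.0%, from 27.0 ± 2.80 (SD, n = 3) to 17.3 ± 1.59 CPM (n = 5). On the log2 scale the change was -0.61 ± 0.10 (SE), with an adjusted p of 0.00147. The Ephb3 levels rest on between 149 and 814 reads per library.

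Ephb2, the receptor whose gradient marks stem and progenitor cells, was not called at either time. Acute controls 1 to 5 were at 102.5, 102.3, 110.4, 89.7 and 88.3 CPM. The acute DKO libraries ran from 62.9 in DKO 4 through a median of 81.7 to 100.1 in DKO 2. The upper DKO libraries lie among the controls and 5 of 7 lie below all of them. The means were 98.6 ± 9.40 and 81.5 ± 13.0 CPM, a log2 fold change of -0.28 ± 0.11 with an adjusted p of 0.0889. DKO 2 decides this side of the threshold: without it the change was -0.33 with an adjusted p of 0.0408. Without DKO 3 and 4 it was -0.18, with an adjusted p of 0.214.

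At the prolonged time Ephb2 was at 114.0, 96.9 and 116.7 CPM in controls 1 to 3. It was at 93.6, 97.0, 93.2, 97.1 and 100.2 CPM in DKO libraries 1 to 5. Control 2 lies among the DKO libraries and the other 2 controls lie above them all. The estimate was a log2 fold change of -0.18 ± 0.06, with an adjusted p of 0.0873. Without control 2 it was -0.26, with an adjusted p of 0.0102.

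Ephb4, a receptor for ephrin-B2 best known as the marker of veins, was not called and its estimate differed in sign between the times. Acute controls 1 to 5 had 140, 143, 149, 139 and 119 CPM. The acute DKO libraries ran from 82.6 in DKO 4 through a median of 131 to 155 in DKO 2, a range wide enough to reach past the controls on both sides. Its log2 fold change was -0.18 ± 0.14 with an adjusted p of 0.43, and it was -0.02 without DKO 3 and 4. Prolonged controls 1 to 3 had 153, 115 and 134 CPM and DKO libraries 1 to 5 had 161, 148, 149, 120 and 142. These groups overlap, with a log2 fold change of 0.11 ± 0.10 and an adjusted p of 0.535.

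Epha2, the A-type receptor, was the 1 gene of the 7 with a positive estimate at both times. Acute controls 1 to 5 were at 51.5, 82.8, 59.5, 64.8 and 76.5 CPM, and the acute DKO libraries ran from 70.1 through 79.5 to 96.2 in DKO 3. The 2 highest controls lie within the DKO range. Its log2 fold change was 0.28 ± 0.12 with an adjusted p of 0.133, and 0.20 without DKO 3 and 4. Prolonged controls were at 63.8, 82.8 and 66.5 CPM and DKO libraries at 70.2, 91.9, 85.8, 87.1 and 76.0. The groups overlap through control 2, and the log2 fold change was 0.21 ± 0.10 with an adjusted p of 0.192. Without control 2 it was 0.32, with an adjusted p of 0.0484.

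**Figure D1:**
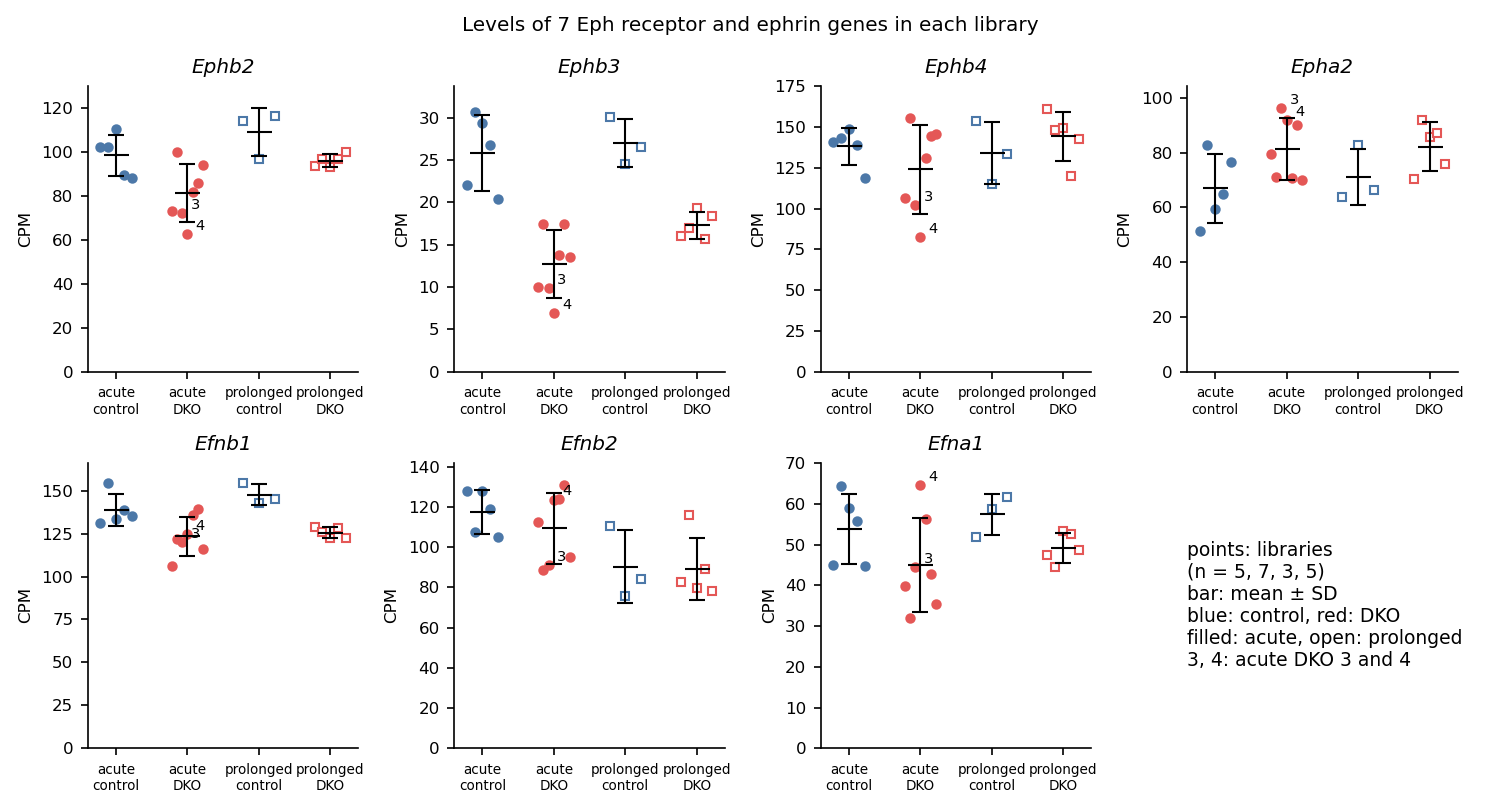
Level of each of the 7 genes in every library, in CPM on linear axes from 0, for acute control (n = 5), acute DKO (n = 7), prolonged control (n = 3) and prolonged DKO (n = 5); points are libraries, bars are mean ± SD, and the digits 3 and 4 mark acute DKO 3 and 4. Ephb3 has DKO and control libraries apart at both times, Efnb1 at the prolonged time, and the groups of the other genes overlap.

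Efnb1, the B-type ligand that binds Ephb2 and Ephb3, was called lower at the prolonged time. Prolonged controls 1 to 3 had 154.4, 142.8 and 145.3 CPM and DKO libraries 1 to 5 had 128.7, 125.8, 122.3, 128.5 and 122.3 CPM. The DKO libraries lie close together and below every control. The mean fell by 14.9%, from 148 ± 6.12 (SD, n = 3) to 126 ± 3.15 CPM (n = 5). On the log2 scale the change was -0.23 ± 0.05, with an adjusted p of 0.00753.

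At the acute time Efnb1 was not called. Controls 1 to 5 had 131, 155, 133, 139 and 135 CPM, and the DKO libraries ran from 106 in DKO 1 through a median of 122 to 139 in DKO 6. The groups overlap, with 5 of 7 DKO libraries below every control. The log2 fold change was -0.17 ± 0.07 with an adjusted p of 0.121, and -0.17 with an adjusted p of 0.196 without DKO 3 and 4.

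Efnb2, the second B-type ligand and a textbook marker of arteries, showed the smallest estimates of the 7. Acute controls 1 to 5 were at 128, 108, 128, 119 and 105 CPM, and the acute DKO libraries ran from 88.7 through 113 to 131. This gave a log2 fold change of -0.11 ± 0.11, with an adjusted p of 0.534, and -0.10 without DKO 3 and 4. Prolonged controls were at 111, 75.8 and 84.2 CPM and DKO libraries at 82.8, 115.8, 79.6, 89.0 and 78.2, with DKO 2 above every other library of that time. The groups overlap at both times, and the prolonged log2 fold change was -0.01 ± 0.14 (interval -0.31 to 0.28) with an adjusted p of 0.959.

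Efna1, the A-type ligand that binds EphA2, was below controls in most DKO libraries without passing the test. Acute controls 1 to 5 had 45.1, 64.4, 59.1, 55.9 and 44.8 CPM. The acute DKO libraries ran from 32.0 in DKO 2 through 42.8 to 64.6 in DKO 4, the highest of the acute libraries. The log2 fold change was -0.27 ± 0.16 with an adjusted p of 0.279, and -0.39 with an adjusted p of 0.101 without DKO 3 and 4. Prolonged controls had 51.9, 58.9 and 61.7 CPM and DKO libraries 47.4, 44.4, 53.4, 52.5 and 48.7. The lowest control lies among the DKO libraries, and the log2 fold change was -0.22 ± 0.08 with an adjusted p of 0.0817. Without control 1 it was -0.29, with an adjusted p of 0.0343.

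**Figure D2:**
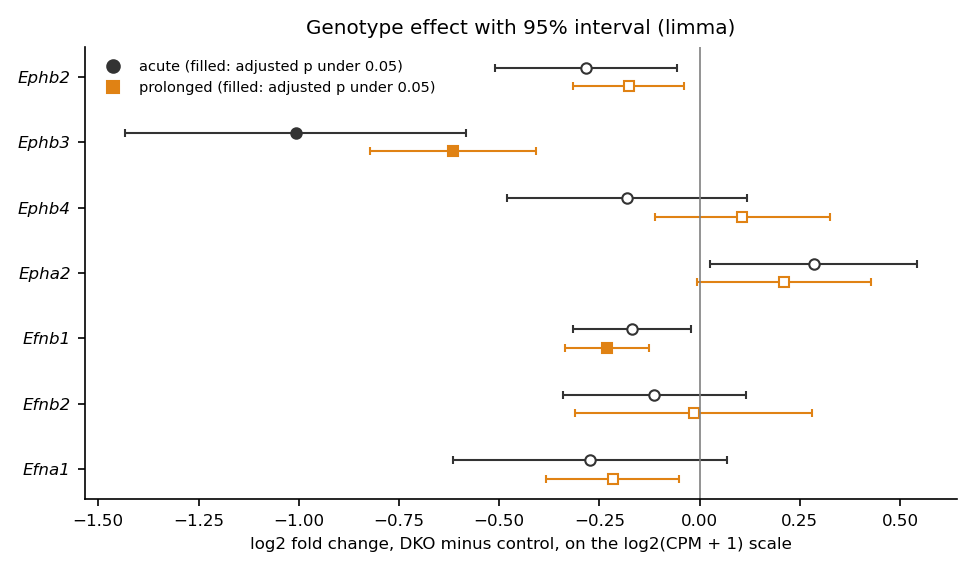
Log2 fold change of log2(CPM + 1), DKO against control, of the 7 genes at the acute time (circles) and the prolonged time (squares) with 95% intervals from limma; filled symbols have an adjusted p under 0.05 over all genes. Ephb3 is filled at both times (-1.01 and -0.61) and Efnb1 at the prolonged time (-0.23), and Epha2 lies to the right of 0 at both.

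The acute changes carry a choice of scale. CPM hold no scaling for composition, and with such scaling the acute estimates of all genes shift up, by 0.08 to 0.10 in the median log2 fold change. Of all acute calls, 80.6% were lower on the CPM scale and 55.6% to 63.0% with scaling. Ephb3 was called lower in all of these fits. Relative to the median of all genes its acute log2 change was -0.94 on the CPM scale and between -0.97 and -0.94 with scaling. Efnb2 at the acute time changed sign, to 0.003 with DESeq2.

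Ephb3 was also lower relative to Ephb2 within the same library, a measure free of scaling between libraries. The ratio of Ephb3 to Ephb2 CPM was 0.215, 0.300, 0.266, 0.299 and 0.231 in acute controls 1 to 5. It ran from 0.1105 in DKO 4 to 0.202 in DKO 6, below every control. On the log2 scale the mean was -1.94 ± 0.22 (SD, n = 5) in controls and -2.73 ± 0.29 (n = 7) in DKO libraries, a difference of -0.78. The two-sided exact permutation test over 792 splits gave p = 0.00253, the smallest it allows, and 0.0101 after adjustment over the 4 ratio tests. Without DKO 3 and 4 the difference was -0.67.

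The prolonged ratios of Ephb3 to Ephb2 were 0.264, 0.253 and 0.227 in controls and 0.171, 0.175, 0.208, 0.161 and 0.184 in DKO libraries. The groups do not overlap and the log2 difference was -0.47. The exact permutation p was 0.0357 over 56 splits, the smallest this design allows, which is 0.0714 after adjustment and misses the threshold. The ratio of the ligand Efnb1 to Ephb2 overlapped between the groups at both times. Its log2 difference was 0.12 at the acute time (exact permutation p = 0.356, adjusted 0.429) and -0.05 at the prolonged time (p = 0.429, adjusted 0.429).

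**Figure D3:**
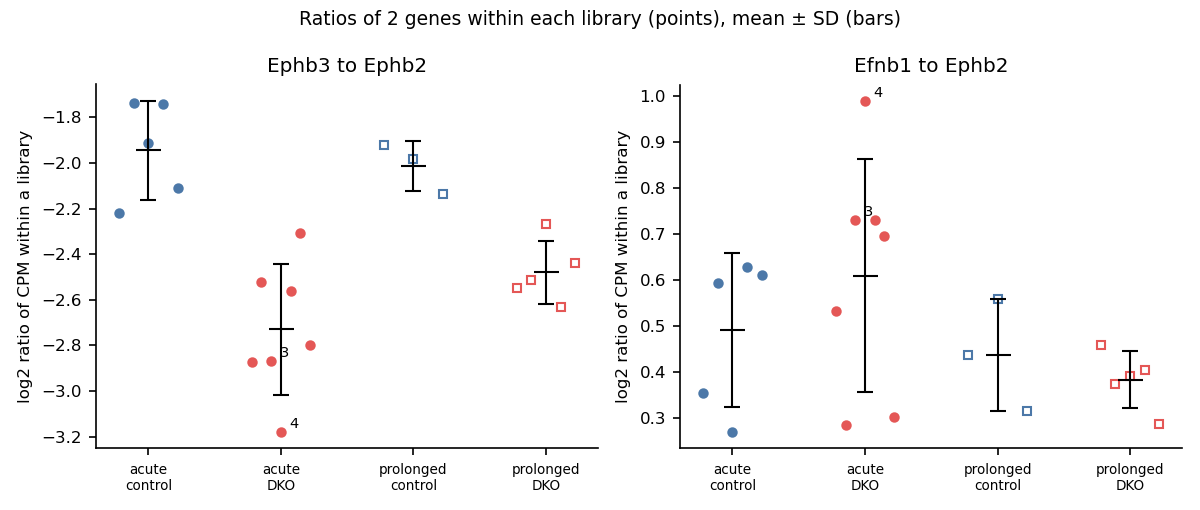
Log2 ratio of CPM within each library, Ephb3 to Ephb2 and Efnb1 to Ephb2, in the 4 groups; points are libraries, bars are mean ± SD, and the axes do not start at 0. The Ephb3 to Ephb2 ratio is lower in every DKO library than in the controls of its time (means -1.94 and -2.73 acute, -2.01 and -2.48 prolonged), while the Efnb1 to Ephb2 ratios overlap.

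Whether the genotype effect differed between the times was tested in 1 model of all 4 groups. None of the 7 genes was called, and 0.0% of the 13088 genes tested were. An unadjusted p under 0.05 was found for 608 of all genes, or 4.65%, and for 0 of the 7. On recovered reads edgeR called 0 genes and DESeq2 called 6 higher and 2 lower, 0 of them among the 7. The effect on Ephb3 was less negative at the prolonged time by 0.39 ± 0.27 on the log2 scale, with an interval from -0.17 to 0.95 and an adjusted p of 0.859. The intervals of the other 6 genes also include 0, that of Ephb4 running from -0.14 to 0.71 and that of Efnb1 from -0.26 to 0.13.

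Over the 4 groups, mean Ephb3 levels were highest in prolonged controls (27.0 CPM), then acute controls (25.9), prolonged DKO (17.3) and acute DKO libraries (12.7). Both control groups lie above both DKO groups. The ranges of the 2 control groups overlap, as do those of the 2 DKO groups. Efnb1 had the same order, with acute controls and prolonged DKO libraries apart and other neighbours overlapping. For the other 5 genes all neighbouring groups overlap. The tables of both times were deposited separately, so levels across times are descriptive.

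Levels of different genes are compared per kilobase of annotated exon (merged exons, GENCODE M21). In acute controls Efnb1 was highest at 40.1 ± 2.71 CPM per kilobase (SD, n = 5), followed by Ephb4 at 29.8, Efna1 at 29.4, Efnb2 at 17.1, Epha2 at 14.3 and Ephb2 at 7.82. Ephb3 was lowest at 3.89 ± 0.67, and at 1.92 ± 0.60 in acute DKO libraries (n = 7). Efnb1 was first, Ephb2 sixth and Ephb3 last in each of the 4 groups. The order of Ephb4 and Efna1 in acute controls reverses when the longest transcript is taken as the length.

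The genes whose level across all 20 libraries was most like each of the 7 were sought among 13081 genes tested at both times, by Pearson's r of log2(CPM + 1). The libraries share 2 tables and 2 genotypes, so r after removal of the 4 group means is given too, and these values are descriptions. For Ephb3 the nearest were Nav2 (r = 0.96, 0.89 after removal), Olfm4 (0.96 and 0.87), a marker of intestinal stem cells, and Sipa1l2 (0.95 and 0.87). For Ephb2 they were Slc12a2 (0.94 and 0.89), a chloride cotransporter enriched in crypts, Add3 (0.94 and 0.88) and Smarcc1 (0.93 and 0.88), a subunit of SWI/SNF chromatin remodelling complexes. For Ephb4 they included Ewsr1 (0.95 and 0.96), which encodes an RNA-binding protein, and Aldh1b1 (0.92 and 0.95).

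The other 4 genes had looser neighbours. For Epha2 these were Gosr1 (0.84, 0.80 after removal), Slc25a22 (0.79 and 0.71) and the transcription factor gene Tbx3 (0.79 and 0.70). For Efnb1 they were Nol4l (0.86 and 0.72), Sash1 (0.85 and 0.75) and the mitotic kinase gene Plk1 (0.85 and 0.69). Efnb2 was nearest to Cmtm6 (0.83 and 0.69), 4930581F22Rik (0.81 and 0.68) and the cell cycle inhibitor gene Cdkn2b (0.81 and 0.71). The neighbours of Efna1 included Rnf24 (0.82 and 0.79) and Asap2 (0.77 and 0.68).

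Of the other 15 Eph receptor and ephrin genes, 7 were expressed enough to be tested at the acute time and 6 at the prolonged time. Of all genes, 12.1% were called lower at the acute time and 8.94% at the prolonged time. Efna3, an A-type ligand, was called lower at both times, and no other of the 15 was called. It fell from 5.74 ± 1.23 (SD, n = 5) to 2.40 ± 0.999 CPM (n = 7) at the acute time, a log2 fold change of -1.04 ± 0.22 with an adjusted p of 0.00779. At the prolonged time it fell from 4.75 ± 0.51 to 3.07 ± 0.65 CPM, -0.51 ± 0.14 with an adjusted p of 0.0351. Every DKO library was below every control at both times. The prolonged call was lost when any 1 of controls 1 to 3 or DKO libraries 2 to 5 was left out (adjusted p 0.0516 to 0.111). With composition scaling Epha1, an A-type receptor chosen for mention after its values were seen, was also called at the acute time, as higher (0.37 to 0.39, adjusted p 0.0146 to 0.0462), as it was without acute control 5, DKO 5 or DKO 6. On the CPM scale it was at 104 ± 7.62 and 127 ± 19.7 CPM (0.28 ± 0.09, adjusted p 0.0628). The median log2 fold change of those tested was -0.06 acutely and -0.09 at 5 months.

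Among 40 genes that signal from or process Eph receptors and ephrins, 37 were tested at each time, and 3 were called lower at the acute time and 0 higher. At the prolonged time 1 was called lower and 3 higher. The shares of all genes called lower and higher were 12.1% and 2.9% at the acute time, and 8.94% and 5.74% at the prolonged time. Tiam1, a Rac exchange factor that binds EphA2 and ephrin-B, was lower at both times. It fell from 26.4 ± 3.405 to 17.0 ± 2.47 CPM at the acute time (-0.61 ± 0.11, adjusted p 0.00278) and from 23.6 ± 5.36 to 13.8 ± 1.98 CPM at the prolonged time (-0.73 ± 0.14, adjusted p 0.00543). The groups do not overlap at either time. The medians of the tested genes were -0.02 and 0.01. With composition scaling the acute counts were 1 lower and 1 to 2 higher, and the prolonged ones 2 to 3 lower and 3 to 4 higher. The genes added in every one of the 4 scaled fits, named after their values were seen, were the phosphatase gene Inppl1 as acutely higher (0.21 to 0.22) and Rgs3, an ephrin-B adaptor, as lower at the prolonged time (-0.34 to -0.33). Without acute DKO 5 there were 5 lower, and without prolonged control 2 there were 2 lower and 1 higher; 2 were lower without prolonged control 1 or DKO 3.

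The other called genes of that list had small changes or low levels. Cdh1, the epithelial cadherin, fell at the acute time by 11.8% (log2 fold change -0.18 ± 0.05, adjusted p 0.0347), and Acp1, a low molecular weight phosphatase, fell by 12.5% (-0.19 ± 0.05, adjusted p 0.0356). Neither was called at the acute time with composition scaling, nor when any 1 of acute controls 1 to 4 or DKO libraries 1 to 3 was left out (adjusted p 0.062 to 0.0887 for Cdh1 and 0.0614 to 0.0965 for Acp1). Without acute DKO 3 and 4 both calls were also lost (adjusted p 0.0555 for Cdh1 and 0.0772 for Acp1). At the prolonged time Cdh1 was at 1112 ± 74.7 CPM in controls and 1001 ± 6.54 in DKO libraries (-0.15 ± 0.06, adjusted p 0.109). DESeq2 called this prolonged change lower (-0.14, adjusted p 0.00876). Acp1 was at -0.06 ± 0.07 at that time (adjusted p 0.647). Grip1, a PDZ scaffold that binds ephrin-B, rose at the prolonged time from 0.67 ± 0.15 (n = 3) to 2.07 ± 0.44 CPM (n = 5), with every DKO library above every control (0.87 ± 0.15, adjusted p 0.00274). At that time 8.82% of all genes had every DKO library above every control. Dvl1, a Wnt and ephrin-B adaptor, rose by 15.3% (0.20 ± 0.05, adjusted p 0.018, and 0.0539 without control 2). Pick1, another PDZ protein, rose by 16.5% (0.22 ± 0.07, adjusted p 0.0464), and its call was lost when any 1 of the 8 libraries was left out (0.0552 to 0.152).

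Of 18 Wnt effectors and target genes, 17 were tested at the acute time, with 2 called lower and 0 higher, and 16 at the prolonged time, with 1 lower and 0 higher. Of all genes, 12.1% and 2.9% were called lower and higher at the acute time, and 8.94% and 5.74% at the prolonged time. Tnfrsf19, a stem cell receptor gene, was lower at both times. It fell from 8.44 ± 1.30 to 4.37 ± 1.36 CPM at the acute time (-0.85 ± 0.18, adjusted p 0.00775) and from 6.48 ± 0.59 to 3.83 ± 0.74 CPM at the prolonged time (-0.64 ± 0.14, adjusted p 0.0113). Znrf3, a ligase that limits Wnt receptors, fell at the acute time (-0.43 ± 0.13, adjusted p 0.0448). Its call was lost when any 1 of controls 1 to 5 or DKO libraries 1, 3, 5 or 6 was left out (0.051 to 0.109). Of 22 alternatives, 14 lost the Znrf3 call, among them the fit without DKO 3 and 4 (-0.30, adjusted p 0.0845). Axin2, the common readout of Wnt signalling, was not called, at 110 ± 15.3 and 87.6 ± 19.8 CPM in acute controls and DKO libraries (adjusted p 0.156) and at 101 ± 12.1 and 93.7 ± 7.65 at the prolonged time (0.453). Lgr5 and Ascl2, also not called, were at -0.79 (0.0546) and -0.61 (0.072) at the acute time. At the prolonged time they were at -0.09 (0.658) and -0.44 (0.0674). DESeq2 called Lgr5 lower at the acute time (-0.65, adjusted p 0.0386) and Ascl2 at the prolonged time (-0.45, 0.031). These 3 genes were named though not called in the main fit. The list medians were -0.17 and -0.04. Without acute DKO 2 there were 4 called lower, and at the prolonged time 2 without DKO 1 and 3 with DESeq2.

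**Figure D4:**
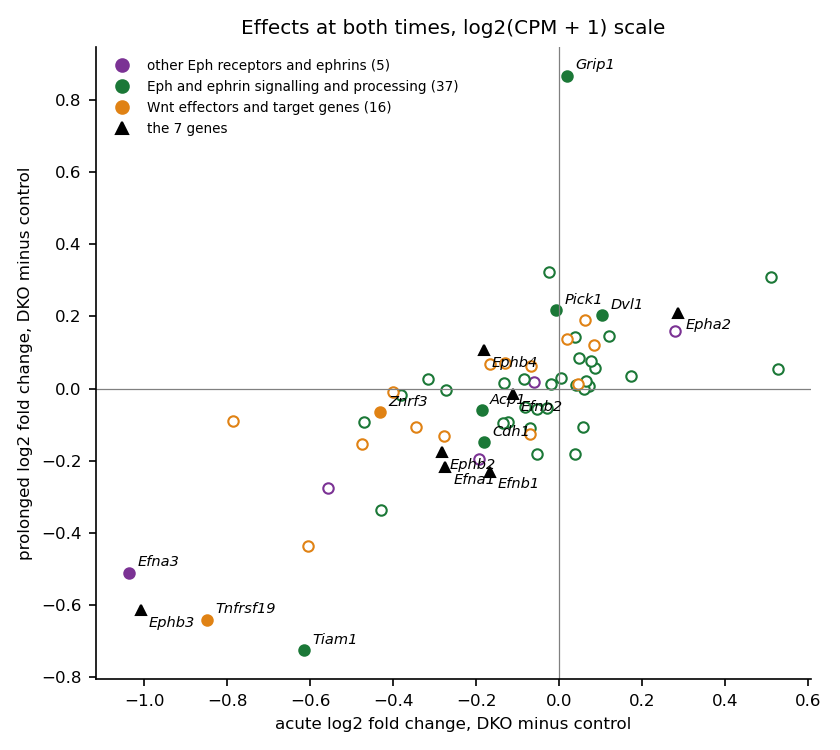
Acute (x axis) against prolonged (y axis) log2 fold change of log2(CPM + 1), DKO against control, for genes of 3 pathway lists tested at both times (circles) and the 7 genes (triangles); filled circles are genes called at either time. Ephb3, Efna3, Tnfrsf19 and Tiam1 lie at the lower left, and Grip1 at the top; each axis uses the controls of its own time.

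Markers of the crypt cells that carry these receptors moved with the genotype. Of 8 Paneth cell markers (Lyz1, defensins and others), 6 were called lower at the acute time, beside 12.1% of all genes, and 5 at the prolonged time, beside 8.94%. Their summed level was 4357 to 8915 CPM in acute controls and 718 to 3833 in acute DKO libraries, lowest in DKO 4, which also had the lowest Ephb3. At the prolonged time the sums were 7300 to 7982 in controls and 1906 to 7141 in DKO libraries. There the lowest sum was in DKO 2, with Ephb3 at 17.0 CPM. The lowest prolonged Ephb3, 15.7 CPM, was in DKO 4, with a sum of 4960 CPM. Prolonged DKO 5, with Ephb3 at 18.5 CPM, had the sum of 7141 CPM, of which Lyz1 made up 5526, above the highest control (4867). For Mmp7, Ang4, Itln1, Defa17, Defa24 and Pla2g2a all 5 prolonged DKO libraries, DKO 5 included, lay below every control. That held for 11.7% of all genes at the prolonged time. Lyz1, Defa22 and Pla2g2a were not called at that time. None of the 8 markers was at 0 in every library of a group.

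Of 9 stem cell markers 4 were called lower at the acute time and 2 at the prolonged time, with sums of 2080 to 2698 CPM in acute controls, 929 to 1871 in acute DKO, 2291 to 2665 in prolonged controls and 1655 to 1901 in prolonged DKO libraries. All 10 proliferation markers were called lower at the acute time and 9 at the prolonged time, with sums of 1010 to 1396, 643 to 915, 1342 to 1636 and 983 to 1187 CPM in the same order. Of all genes, 12.1% were called lower at the acute time and 8.94% at the prolonged time. The part of Paneth, stem and proliferating cells in the Ephb3, Ephb2 and Efnb1 results was not tested.

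Sums of 9 enterocyte markers were 16943 to 28883 CPM in acute controls and 21505 to 33951 in acute DKO libraries. They were 19895 to 29099 in prolonged controls and 25910 to 29993 in prolonged DKO libraries. Sums of 7 goblet cell markers were 6344 to 7533, 6480 to 8036, 9303 to 10091 and 9567 to 10792 CPM in the same order. Markers of endothelium and of stroma and muscle were lower in level than those of the crypt cells. The 12 endothelial markers, relevant to Ephb4 and Efnb2, summed to 7.86 to 9.50 CPM in acute controls, 5.57 to 11.3 in acute DKO, 5.22 to 5.95 in prolonged controls and 3.85 to 5.64 in prolonged DKO libraries. The part of endothelial cells in the Ephb4 and Efnb2 levels was not tested. The sums cover the 11 markers with values at the acute time, all but Emcn, and 8 at the prolonged time, where Kdr, Flt1 and Cldn5 were also not analysed here. None of the markers with values was at 0 in every library of a group. Sums of 10 stromal and muscle markers ran from 28.6 to 166.6 CPM in acute controls. In acute DKO libraries they ran from 19.5 in DKO 5 to 623 in DKO 3, and the next highest was 213 in DKO 4. At the prolonged time they were at most 13.8. Immediate early genes respond to handling. Of 10 such genes, Fos, Jun and Zfp36 were called higher at the acute time and 0 at the prolonged time. Among all genes 2.9% and 5.74% were called higher. Sums of the 10 genes were 417 to 591 CPM in acute controls and 551 to 693 in acute DKO libraries. They were 388 to 535 in prolonged controls and 466.5 to 587 in prolonged DKO libraries. Their part in the acute results was not tested.

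**Figure D5:**
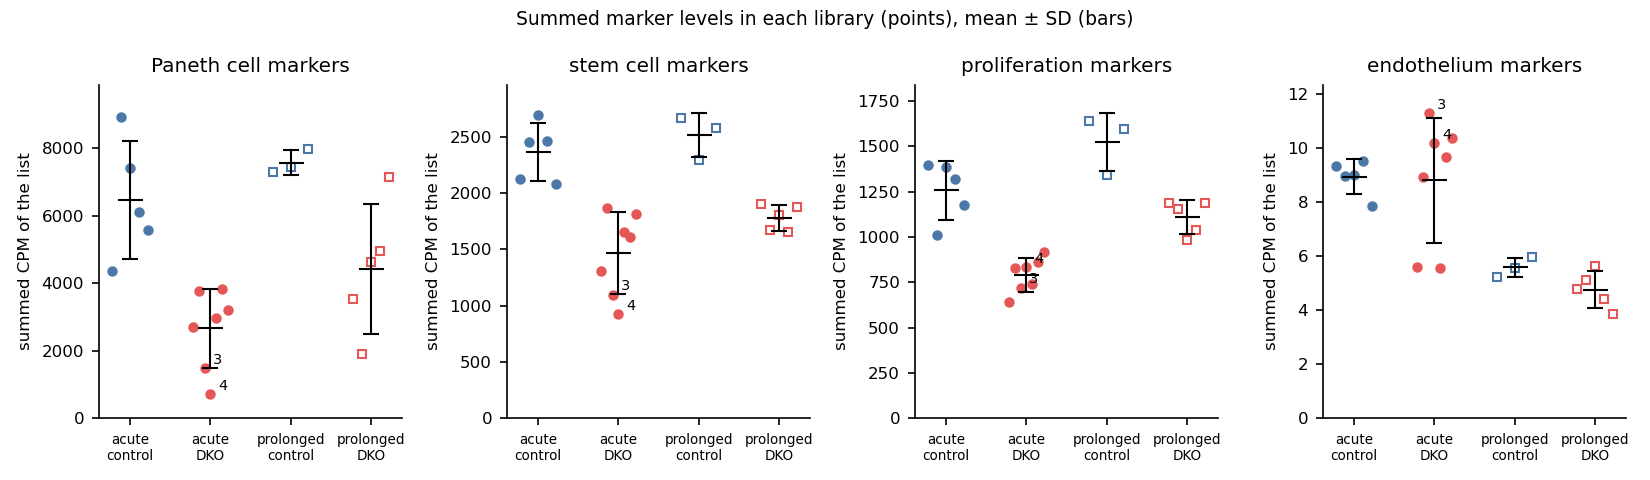
Summed CPM of Paneth cell, stem cell, proliferation and endothelium markers in each library of the 4 groups, on linear axes from 0; points are libraries, bars are mean ± SD, and 3 and 4 mark acute DKO 3 and 4. Stem cell and proliferation sums are lower in every DKO library than in the controls of its time, and the endothelium sums stay between 3.85 and 11.3 CPM.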

How the data were processed

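Poly(A) RNA of 20 jejunal epithelium libraries was sequenced. Tools named in the submitters' processing notes are STAR and featureCounts 1.6.2, with FastQC 0.11.5, bedtools 2.27.1, SAMtools 1.9 and DESeq2, and the build is mm9. The authors deposited CPM per gene and library, 1 table per time, with their own DESeq2 columns. Per the file headers, these give the authors' log2 fold change, its standard error (a score here) and an adjusted p-value. The strand setting of the counting is not stated, and reads of overlapping genes cannot be told apart.

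Genes with at least 0.5 CPM in 5 acute or 3 prolonged libraries were tested with limma 3.58.1 (R 4.3.3) on log2(CPM + 1), which understates changes of low genes, with no covariate. Values were whole multiples of 1 read in 100% of cases within 0.05 reads, so edgeR 4.0.16 and DESeq2 1.42.0 were run on recovered reads as alternatives. Named list genes are those called at either time, at most 6 per list by smallest adjusted p. Axin2, Lgr5, Ascl2, Epha1, Inppl1 and Rgs3 were named outside this rule. Nearest patterns are the 3 highest r per gene; some are not reported here. The 7 genes and all lists were chosen with earlier results of these data known. Promoter letters come from RefSeq (GRCm38.p6), another build than the authors'. Other alternatives were the pseudocount, filter, scaling, blocks and leaving out libraries.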

Additional observations from a re-analysis of the deposited data

Results flagged for a closer look

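In groups of 4 to 10 libraries, a library was marked where its gap to the nearest other, over the group's range, passed Dixon's 95% critical value. Over the 7 genes 21 groups were examined, and 27 over the named genes of the pathway lists; chance marks about 1 in 20. Efnb2 was highest in prolonged DKO 2, at 115.8 CPM against 89.02 in the next library. Efna3 was highest in acute control 2, at 7.91 CPM against 5.507. Cdh1 was lowest in acute control 5, at 892.8 CPM against 960.7, and highest in prolonged DKO 5, at 1012 CPM against 999.9.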

How the results depend on the processing

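Ephb3 was called lower in all 22 acute alternatives (-1.13 to -0.79) and all 16 prolonged ones (-0.68 to -0.54). The number of the 7 genes called lower stayed at 1 at the acute time except 2 without DKO 2 (1 to 2 leaving out libraries), and at the prolonged time ranged from 2 to 3 leaving out libraries, with 0 to 1 called higher. The prolonged Efnb1 call was kept in 15 of 16 alternatives and not with the replicate block (-0.23, adjusted p 0.111). No sign of pairing by replicate number was seen (correlations -0.20 to 0.20 acute, -0.24 to -0.16 prolonged, and no library correlated best with its own number). With so few libraries this check cannot exclude pairing. The replicate block gave 1 prolonged call among the 7 (Ephb3, adjusted p 0.0488), 828 genes lower and 119 higher at the acute time, and 361 lower and 167 higher at the prolonged time.

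Of all acute genes, 1641 were lower and 394 higher. With edgeR there were 1081 and 667 (TMM) or 1029 and 736 (relative log expression), and there were 1304 and 1040 with DESeq2, and 1124 and 660 with limma on TMM-scaled CPM. The animal-number block gave 1087 lower. Leaving out libraries gave 1014 (without control 3) to 1817 lower and 225 to 435 higher at the acute time, and 684 to 1152 lower and 367 to 757 higher at the prolonged time (1190 and 765 in full). Between times, 0 genes were called; DESeq2 gave 6 higher and 2 lower, no filter 5 higher, and leaving out libraries 0 to 1 higher.

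Signs turned for uncalled values near 0, and the cause was not tested. Acute Efnb2 was 0.0030 with DESeq2 and 0.0039 with relative log expression. Prolonged Efnb2 was 0.037 with the replicate block and -0.13 to 0.14 leaving out libraries. Between times Epha2 was 0.013 without DKO 3 and 4 (-0.15 to 0.040 leaving out libraries). Efnb2 was -0.00058 with edgeR, -0.0102 with DESeq2 and -0.0106 with relative log expression (-0.017 to 0.25). Efna1 was -0.063 with edgeR, -0.079 with DESeq2, -0.075 with relative log expression, -0.026 on TMM-scaled CPM and -0.037 with the replicate block (-0.017 to 0.15). The prolonged Ephb3 to Ephb2 ratio differed by -0.53 to -0.42 leaving out libraries (exact permutation p 0.0571 to 0.0952, the smallest that 7 libraries allow). The prolonged Efnb1 to Ephb2 ratio ran from -0.11 to 0.0065.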
